A study of Mus musculus with 46 samples.

Results

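Gsto1, Gsta1 and Gstt2 encode glutathione transferases of the omega, alpha and theta classes, and they are described here across every RNA group of a mouse embryo series. They were chosen by name, 3 of the 7182 genes used from the deposited expression table, after their E5.5 values were known. Gsto1 is taken as chosen with its E4.5 epiblast values known too. The E5.5 levels that set them apart are therefore given as description, with no p-value, and so are all other values that use E5.5 libraries or E4.5 cells. The E3.5 comparison is the one in which the genes themselves were tested.

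Glutathione transferases join the tripeptide glutathione to electrophilic compounds, which makes them more soluble and easier to export. Gsto1 differs from most of the family in having a cysteine in its active site, and it also reduces dehydroascorbate and methylated arsenic compounds. Gsta1 is an alpha-class enzyme best known from liver, where it handles electrophiles and lipid peroxides, and Gstt2 is a theta-class enzyme with activity towards small reactive sulfates and peroxides.

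The study disrupted Rbbp5, a core subunit of the MLL histone methyltransferase complexes that act on lysine residue H3K4. RNA was sequenced by SMART-seq2 with a Tn5 library step from 33 of the 46 samples, 20 of them single embryos and 13 of them single cells. The embryo libraries were the inner cell mass (ICM) of the E3.5 blastocyst from 7 wild-type (WT) and 7 Rbbp5KO (KO) embryos, and the E5.5 epiblast from 3 WT and 3 KO embryos. The E4.5 cells were 7 WT and 3 KO epiblast cells, and 1 WT and 2 KO cells of the primitive endoderm, the layer next to the epiblast. KO embryos came from zygotes injected with Cas9 mRNA and guide RNA, or from Rbbp5 flox/flox zygotes injected with Cre mRNA, and the sources used here do not tell which method made a given library. Embryos of both genotypes were grown in KSOM medium to blastocysts, or were transferred at the 2-cell stage to pseudo-pregnant mice. ICMs and E4.5 parts were obtained by immunosurgery, which lyses the outer cells, and E5.5 epiblasts were dissected by hand. The targeted gene itself was not analysed here and gives no check on the genotypes. Expression is given in FPKM, which divides sequenced fragments by transcript length and library size, so levels can be set side by side between genes. Nothing in the labels says whether embryos shared a litter, so p-values measure the spread between these libraries.

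In the RefSeq annotation of GRCm38.p6 the protein-coding gene Gsto1 (gene ID 14873) lies on chromosome 19 from 47854973 to 47864790. Gsta1 (gene ID 14857) lies on chromosome 9 from 78230669 to 78242683, and Gstt2 (gene ID 14872) on chromosome 10 from 75831842 to 75837419. For 2 of the 3 genes the RefSeq promoter table held a window of 300 bases, 250 before the transcript start and 50 after it. Both promoters are shown because the genes share high E5.5 KO levels while their start regions differ in CpG, the dinucleotide that DNA methylation marks and that is dense in many promoters bound by MLL complexes. Capitals mark each CpG. The Gsto1 window is chr19:47854723-47855022 and the Gsta1 window chr9:78230419-78230718, both on the plus strand.
Gsto1: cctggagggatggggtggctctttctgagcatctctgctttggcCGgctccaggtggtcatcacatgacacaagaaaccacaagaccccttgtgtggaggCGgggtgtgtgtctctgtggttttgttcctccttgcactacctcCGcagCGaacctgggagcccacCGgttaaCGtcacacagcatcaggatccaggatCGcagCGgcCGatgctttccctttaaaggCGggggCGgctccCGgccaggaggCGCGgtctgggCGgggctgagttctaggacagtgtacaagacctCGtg
Gsta1: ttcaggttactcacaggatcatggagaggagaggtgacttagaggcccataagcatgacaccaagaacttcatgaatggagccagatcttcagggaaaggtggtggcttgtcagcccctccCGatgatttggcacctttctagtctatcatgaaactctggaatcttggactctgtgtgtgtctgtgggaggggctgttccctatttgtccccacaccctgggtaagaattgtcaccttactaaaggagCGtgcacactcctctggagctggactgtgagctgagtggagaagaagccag
The Gsto1 window held 16 CpG at 60.7% GC, and 33% of the 32851 promoter windows held at least as many. The Gsta1 window held 2 CpG at 51.0% GC, and 85.9% of windows held at least as many. Both strands were searched for 3 motifs. The antioxidant response core TGACNNNGC occurred in neither window and in 12.4% of all windows. The GC box GGGCGG occurred 2 times in the Gsto1 window, where it overlaps the marked CpG, not in the Gsta1 window, and in 35.7% of all windows. The TATA motif TATAAA occurred in neither window and in 13.6% of all windows.

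Embryo libraries had 3628 to 5895 genes at 1 FPKM or more and single cells 3026 to 4682, and sequencing depth is unknown because FPKM does not give it. The KO ICM libraries had 3628 to 5136 such genes and the WT ICM libraries 5110 to 5718. Before any E5.5 value is read, the E5.5 KO libraries stand apart from their label. Of 12 trophectoderm markers listed for this purpose, 10 were in the table, and their summed FPKM was 1936.7 to 3392.6 in the 3 KO epiblasts and 95.2 to 145.2 in the 3 WT epiblasts. All 9 tested markers were higher in KO (limma, Benjamini-Hochberg adjusted p = 1.83e-06 for Gata3, a trophoblast transcription factor, at 88.8 to 241.4 FPKM in KO and 0.129 to 0.596 in WT). Cdx2, Gata3, Gata2, Tead4 and Elf5 were below 1 FPKM in all 3 WT epiblasts, and no marker of the list was below 1 FPKM in all 3 KO epiblasts. Cdx2 was low in the KO epiblasts too, at 0, 3.21 and 0.828 FPKM, and its mean was too low for a test. Gata2 stood at 9.14, 1.13 and 1.39 FPKM in the KO epiblasts. Pou5f1, the pluripotency factor OCT4, stood at 4.57, 5.07 and 19.9 FPKM in the KO epiblasts and at 190.4, 126.0 and 103.4 FPKM in the WT epiblasts. Of 7 tested markers of the ICM and epiblast, limma called 5 lower and 1 higher in KO. The 1 that was higher was Esrrb, at 1.35 to 5.59 FPKM in KO and 0 to 0.0739 FPKM in WT. All 3 KO epiblasts carry high trophectoderm marker sums and low Pou5f1, so no E5.5 KO value can be given without such a library.

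Gsto1 was among the most abundant transcripts of the ICM in both genotypes. In WT ICMs it ranged from 893.9 to 2245.4 FPKM with a median of 1306.1, and it ranked between 6 and 48 of 7182 genes within each library. In KO ICMs it ranged from 741.2 to 1844.0 FPKM with a median of 1307.6, and it ranked between 18 and 78. The groups overlapped over most of their range, with means of 1360.6 ± 435.0 FPKM (SD, n = 7) in WT and 1298.8 ± 333.0 FPKM (SD, n = 7) in KO. The log2 change of KO against WT, on log2(FPKM + 1), was -0.06 (SE 0.20), with a 95% interval of -0.48 to 0.37 (limma, Benjamini-Hochberg adjusted p = 0.842 over 5443 genes tested). The median of all genes tested was -0.65 in the same comparison. With each library scaled by the median ratio to the others the Gsto1 change was 0.51 (limma, Benjamini-Hochberg adjusted p = 0.165), and under quantile normalization it was -0.60 (limma, Benjamini-Hochberg adjusted p = 0.074), so no direction is given.

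In WT embryos Gsto1 was low by E5.5. The 3 WT epiblasts stood at 38.2, 25.5 and 39.8 FPKM, a mean of 34.5 ± 7.80 FPKM (SD, n = 3), and their ranks were 1364, 1760 and 1361. All 3 lay below every one of the 7 WT ICMs. The ratio of the WT ICM mean to the WT epiblast mean was 39.4, and the log2 change from ICM to epiblast was -5.23 (SE 0.24).

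The KO epiblasts did not show the low level. They stood at 1310.4, 1334.0 and 2066.7 FPKM, a mean of 1570.4 ± 430.0 FPKM (SD, n = 3), and Gsto1 ranked 21, 20 and 10 in these libraries. All 3 lay above every WT epiblast. The first and second lay within the range of the KO ICMs, and the third lay above the highest of these, 1844.0 FPKM. The ratio of KO to WT epiblast means was 45.5, with a log2 change of 5.46 (SE 0.23). The ratio of the KO epiblast mean to the KO ICM mean was 1.21, and those ranges overlapped. That log2 change over time in KO was 0.29 (SE 0.25), and with median ratio scaling it was -0.63, so no direction is given. The KO effect at E5.5 exceeded that at E3.5 by 5.52 on the log2 scale (SE 0.36). In whole epiblasts a different share of cells with Gsto1 and a different amount of Gsto1 RNA per cell cannot be told apart.

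**Figure D1:**
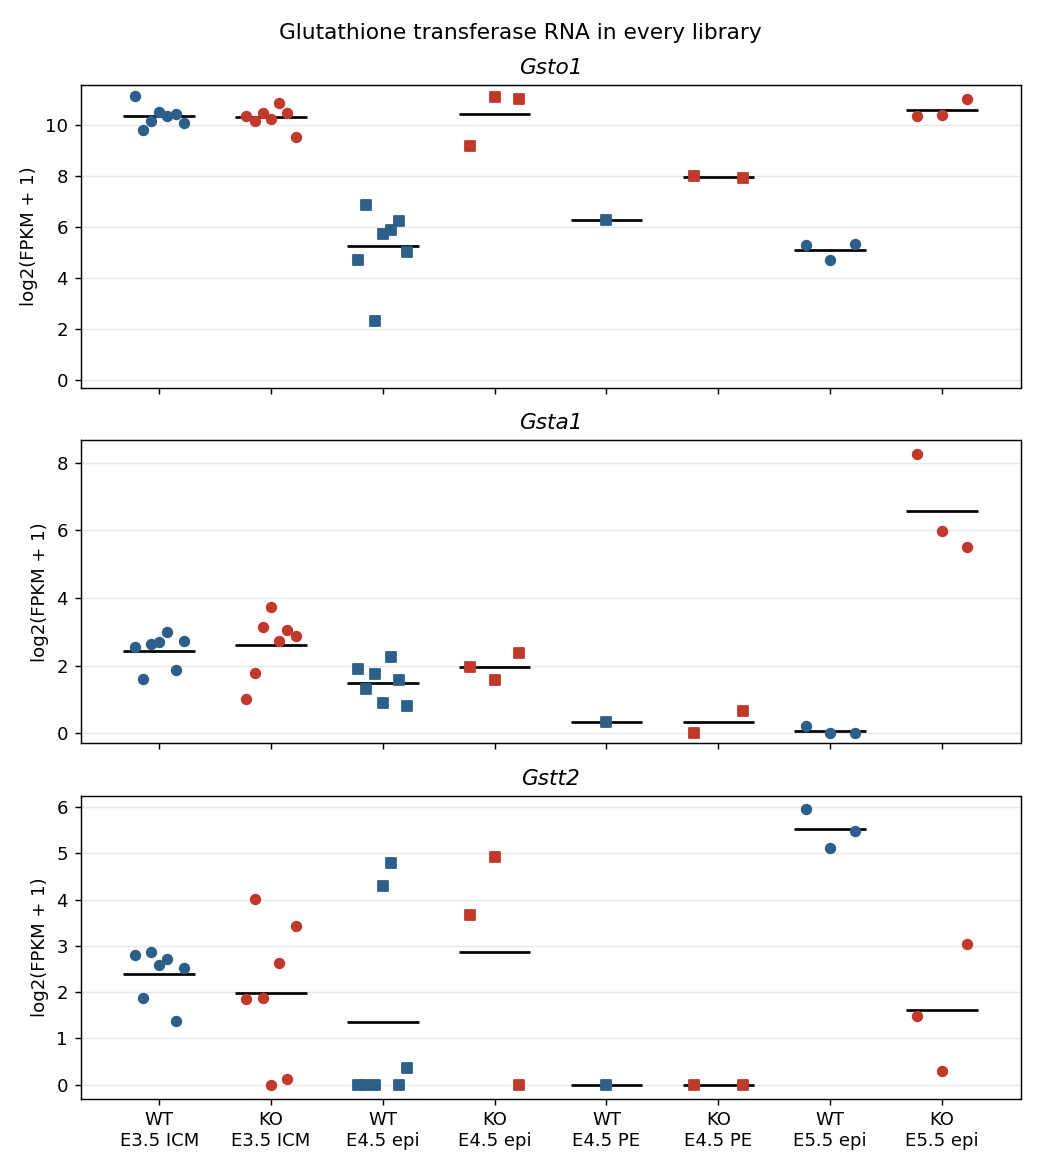
Level of Gsto1, Gsta1 and Gstt2 in each library as log2(FPKM + 1), with 1 point per library, circles for embryos, squares for single cells, blue for WT and red for KO, and black lines at the mean of the log2 values. At E5.5 the 3 KO epiblasts lie above the 3 WT epiblasts for Gsto1 and Gsta1 and below them for Gstt2, while the 7 WT and 7 KO ICMs overlap for all 3 genes.

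Single E4.5 epiblast cells showed the same order of genotypes for Gsto1 as the E5.5 epiblasts. The 7 WT cells ranged from 4.04 to 114.7 FPKM with a median of 52.1. The 3 KO cells stood at 578.2, 2219.5 and 2089.0 FPKM and ranked Gsto1 at 47, 4 and 7. All 3 KO cells lay above all 7 WT cells, and the ratio of the means, 1628.9 to 51.4 FPKM, was 31.7. The share of all genes that part these cells alike was not computed, and Gsto1 is taken as chosen with these values known. The genotypes were also apart in detected genes, with 3026 to 3628 at 1 FPKM or more in the KO cells and 3878 to 4682 in the WT cells, and the part of this in the Gsto1 values was not tested. The labels tie no cell to an embryo, so these are values of cells and no test was made. In the primitive endoderm the WT cell stood at 75.8 FPKM, inside the range of the WT epiblast cells. The 2 KO primitive endoderm cells stood at 252.8 and 241.3 FPKM, above all WT cells and below all KO epiblast cells.

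The trophectoderm markers of the KO E4.5 epiblast cells were mixed. Cdx2, Gata2 and Elf5 were below 1 FPKM in all 3 cells, Gata3 stood at 1.47, 1.15 and 26.6 FPKM, and Id2 at 2.09 to 2.77 FPKM against 782.9 to 959.4 FPKM in the E5.5 KO epiblasts. Cldn4, at 75.4, 69.0 and 30.8 FPKM, was at the level of the E5.5 KO epiblasts, 23.3 to 62.8 FPKM, and Tead4 in the first cell, at 37.1 FPKM, was above their 6.76 to 9.81 FPKM. Summed trophectoderm markers were 139.7 to 336.9 FPKM in these cells and 61.5 to 254.9 FPKM in the WT epiblast cells. Pou5f1 stood at 1167.0, 1210.7 and 513.8 FPKM in the KO cells, and at 588.0 to 1191.3 FPKM in the WT cells. KO epiblast cells 1, 2 and 3 had 578.2, 2219.5 and 2089.0 FPKM of Gsto1 and marker sums of 234.5, 336.9 and 139.7 FPKM. Cell 3 had the lowest Pou5f1 and the highest Gata3, but the lowest marker sum. Cell 2 had low Gata3 but the highest sum, with Krt18 at 241.3 FPKM against 30.4 and 26.3 FPKM in cells 1 and 3. A link between Gsto1 and these markers was not tested in the 3 cells.

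Trophectoderm marker sums of the ICMs ran from 26.8 to 983.9 FPKM, and their Gsto1 from 741.2 to 2245.4 FPKM. The KO ICM with the lowest marker sum, 26.8 FPKM, had 1205.5 FPKM of Gsto1. The WT ICM with the highest marker sum, 983.9 FPKM, also had the highest Gsto1, 2245.4 FPKM. Of the 7 trophectoderm markers tested in the ICM, 4 were lower in KO, next to 24.9% of all genes tested. Among the 4 was Cldn4, a tight junction claudin, with a log2 change of -2.97 (limma, Benjamini-Hochberg adjusted p = 0.003). The median of the 7 was -1.85 against -0.65 over all genes tested, and none was called with detected genes as a covariate. For the E5.5 epiblasts the part of trophoblast RNA in the Gsto1 level was not tested.

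**Figure D2:**
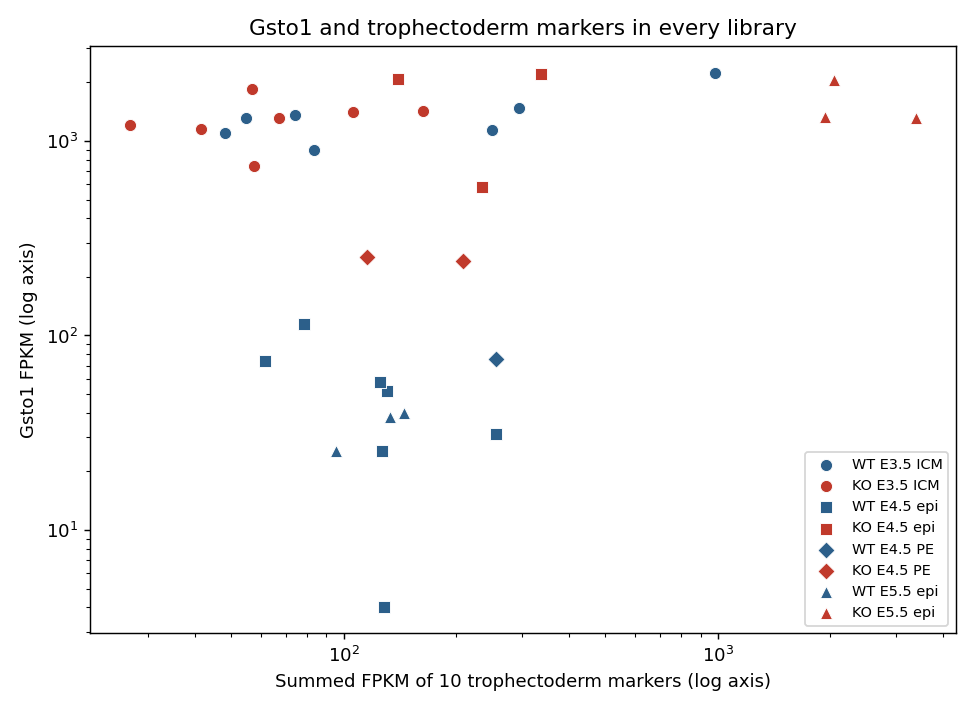
Gsto1 FPKM against the summed FPKM of 10 trophectoderm markers, both on log axes, with 1 point per library and the marker shape giving the stage. The 3 KO E5.5 epiblasts lie at marker sums of 1936.7 to 3392.6 FPKM, with Gsto1 at 1310.4 to 2066.7 FPKM. The ICMs lie at sums of 26.8 to 983.9 FPKM, with Gsto1 at 741.2 to 2245.4 FPKM. The KO E4.5 epiblast cells lie at sums of 139.7 to 336.9 FPKM, with Gsto1 at 578.2 to 2219.5 FPKM. A link between the 2 measures was not tested.

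By order of means, Gsto1 in embryos ran from KO epiblast through WT ICM to KO ICM, which overlapped with each other, and then to the WT epiblast, which overlapped with none. In single cells the order was KO epiblast, KO primitive endoderm, WT primitive endoderm and WT epiblast, and only the last neighbours overlapped.

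Gsta1 was a low transcript in the ICM. WT ICMs ranged from 2.03 to 7.04 FPKM with a mean of 4.70 ± 1.76 FPKM (SD, n = 7), and KO ICMs from 1.01 to 12.4 FPKM with a mean of 6.10 ± 3.72 FPKM (SD, n = 7). The ranges overlapped, and the KO ICMs spanned more than the WT ICMs at both ends. The log2 change was 0.17 (SE 0.42), with a 95% interval of -0.70 to 1.04 (limma, Benjamini-Hochberg adjusted p = 0.765). It was 0.98 under quantile normalization (limma, Benjamini-Hochberg adjusted p = 0.118) and 0.62 with median ratio scaling (limma, Benjamini-Hochberg adjusted p = 0.343).

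At E5.5 Gsta1 was at or near 0 in WT and high in KO. In the WT epiblasts it was at 0.150 FPKM in 1 library and listed at 0 in the other 2. In the KO epiblasts it stood at 304.1, 62.1 and 44.4 FPKM, with ranks of 177, 859 and 1310. All 3 KO values lay far above every WT value, and the KO epiblasts differed among themselves more for Gsta1 than for Gsto1. The highest of them was replicate 1, which also had the highest trophectoderm marker sum, 3392.6 FPKM, against 1936.7 and 2051.6 FPKM in replicates 2 and 3. Between replicates 2 and 3 the order was the other way, with less Gsta1 at the higher sum. Gsto1 was lowest in replicate 1, at 1310.4 FPKM against 1334.0 and 2066.7 FPKM. A link between these genes and the markers was not tested.

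Unlike Gsto1, Gsta1 in KO epiblasts was above its own KO ICM level. Their mean of 136.9 ± 145.1 FPKM (SD, n = 3) was 22.4 times the KO ICM mean, and the ranges did not overlap. The log2 change over time was 3.97 (SE 0.67) in KO and -2.37 (SE 0.34) in WT. The KO mean rests largely on the first library. Without it the KO change was 3.13 (SE 0.70), and the other libraries, at 62.1 and 44.4 FPKM, still lay above the highest KO ICM, at 12.4 FPKM. The log2 change of KO against WT at E5.5 was 6.51 (SE 0.62), and it depends on the pseudocount because WT is at or near 0. It was 9.44 with a pseudocount of 0.1 and 4.32 with one of 5. The difference between the KO effects of the stages was 6.34 (SE 0.78), and 5.5 without the first KO epiblast.

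Single cells gave no such contrast for Gsta1. WT E4.5 epiblast cells ranged from 0.749 to 3.78 FPKM with a median of 1.96, and the 3 KO cells stood at 2.92, 1.95 and 4.15 FPKM. These ranges overlapped. The WT primitive endoderm cell stood at 0.266 FPKM and the KO cells at 0 and 0.568 FPKM. The 3 KO epiblast cells with Gsto1 at 578.2 FPKM or more thus had Gsta1 at 4.15 FPKM or less, whereas all 3 E5.5 KO epiblasts had both genes high. By order of means the embryo groups ran KO epiblast, KO ICM, WT ICM and WT epiblast, and only the ICM groups overlapped.

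Gsta1 lies in a cluster of closely related alpha-class genes, so the counting behind FPKM may have split reads between copies, and its level is uncertain to that extent. Gsta4, 21.3 kb before it in coordinates, encodes an enzyme for the lipid peroxidation product 4-hydroxynonenal. It moved the other way at E5.5, from 236.5 ± 45.9 FPKM in WT to 60.8 ± 33 FPKM in KO (SD over 3 libraries each), and its log2 change was -2.06 (SE 0.35, limma, Benjamini-Hochberg adjusted p = 0.00264). Gsta2, 88.3 kb after Gsta1 and a close copy of it, was listed at 0 in all 3 WT epiblasts and stood at 15.7, 3.97 and 1.72 FPKM in KO (limma, Benjamini-Hochberg adjusted p = 0.0071, and 0.0643 with a pseudocount of 5). The KO library with the most Gsta1 was thus also that with the most Gsta2.

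Gstt2 went in the opposite direction to Gsto1 and Gsta1 at E5.5. In WT ICMs it ranged from 1.61 to 6.28 FPKM with a mean of 4.55 ± 1.76 FPKM (SD, n = 7). In KO ICMs it ranged from 0 to 15.1 FPKM with a mean of 5.07 ± 5.56 FPKM (SD, n = 7), so the KO ICMs held both the lowest and the highest values. The log2 change was -0.40 (SE 0.56), with a 95% interval of -1.57 to 0.77 (limma, Benjamini-Hochberg adjusted p = 0.59). It was -1.12 with a pseudocount of 0.1 (limma, Benjamini-Hochberg adjusted p = 0.382). Under quantile normalization it was 0.45 (limma, Benjamini-Hochberg adjusted p = 0.531), and without the 3 KO ICMs with the fewest detected genes it was 0.59 (limma, Benjamini-Hochberg adjusted p = 0.386).

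With that, 0 of the 3 genes was called in the ICM, where 28.3% of the 5443 genes tested were called at an adjusted p under 0.05, 3.44% higher and 24.9% lower in KO. The E5.5 changes are not set against the ICM intervals, because the genes were chosen with their E5.5 values known. For Gsto1 and Gstt2 the ICM values under some of the alternatives lie outside these intervals. Changes inside the intervals are not excluded in the ICM. The intervals are not adjusted for the number of genes tested, so they do not give the smallest change that could be called.

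WT epiblasts had more Gstt2 than WT ICMs. They stood at 61.0, 33.5 and 44.1 FPKM, a mean of 46.2 ± 13.9 FPKM (SD, n = 3), and all 3 lay above all 7 WT ICMs. The ratio of the means was 10.1 and the log2 change 3.13 (SE 0.35). KO epiblasts stood at 1.81, 0.225 and 7.20 FPKM, a mean of 3.08 ± 3.66 FPKM (SD, n = 3). All 3 KO epiblasts lay below the 3 WT epiblasts and within the range of the KO ICMs. The ratio of WT to KO epiblast means was 15, and the log2 change of KO against WT was -3.91 (SE 0.61). Over time in KO the log2 change was -0.38 (SE 0.87), and without the second KO epiblast it was 0.27, so no direction is given. The difference between the KO effects of the stages was -3.51 (SE 1.0). The E5.5 KO libraries that were low in Gstt2 also had a low sum of 4 markers of the E5.5 epiblast. It was 40.1 to 139.6 FPKM against 432.0 to 506.7 FPKM in WT. Of these 4 markers, limma called 2 lower in KO, next to 18.5% of all genes tested. Lefty2, at 1.15 to 3.31 FPKM in KO and 2.04 to 4.09 FPKM in WT, overlapped. Nodal overlapped as well, with 11.9 FPKM in the third KO epiblast and 8.53 to 15.9 FPKM in WT. The part of these marker levels in the Gstt2 level was not tested.

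Gstt2 was listed at 0 in most single cells. Of the 7 WT epiblast cells, 4 were listed at 0, and the others stood at 0.284, 18.6 and 26.7 FPKM. The 3 KO epiblast cells stood at 11.8, 29.4 and 0 FPKM, so the genotypes overlapped. All 3 primitive endoderm cells were listed at 0. Txnrd2, a mitochondrial thioredoxin reductase gene in wide use, was likewise listed at 0 in 5 of the 7 WT epiblast cells, so a 0 in these cells is not read as absence of the RNA. Among embryos the WT epiblast was highest, and the KO ICM, WT ICM and KO epiblast overlapped below it.

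The neighbours of Gstt2 in the table include another theta-class gene. Gstt3, 50.4 kb before it, stood at 9.39, 6.87 and 9.83 FPKM in WT epiblasts and at 0.425, 0.309 and 1.97 FPKM in KO epiblasts, with no overlap (log2 change -2.44, SE 0.35, limma, Benjamini-Hochberg adjusted p = 0.000788). Mif, a cytokine gene 21.9 kb after Gstt2, went from 3127.5 ± 325.4 FPKM in WT to 1846.0 ± 153.2 FPKM in KO (SD over 3 libraries each), and its log2 change was -0.76 (SE 0.13, limma, Benjamini-Hochberg adjusted p = 0.00187). Beside Gsto1, the DNA repair gene Sfr1, 119.4 kb before it, had a log2 change of -0.11 (SE 0.19, limma, Benjamini-Hochberg adjusted p = 0.7) and stood at 170.9 FPKM in WT and 161.4 FPKM in KO. The next gene of the table on the other side, the cytoskeletal gene Add3, lies 5275.7 kb away.

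At E5.5 the KO and WT ranges of all 3 genes were apart, and 34.1% of the 5956 genes tested were called in that comparison, 15.6% higher and 18.5% lower. For WT epiblast against WT ICM, where all 3 ranges were also apart, 56.3% of 6022 genes were called, 37.3% higher and 18.9% lower. For KO epiblast against KO ICM, where only Gsta1 had ranges apart, 48.5% of 5604 genes were called, 39.8% higher and 8.67% lower. These shares are of limma calls, a different measure from ranges that are apart, for which no share over all genes was computed. They describe the background, and nothing about the 3 genes is read from them. The comparisons share libraries, so their values are set side by side and not counted as separate evidence.

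Among the transferase genes that are in the table, Gsto1 made up most of the summed FPKM in ICMs and KO epiblasts. Listed transferases that are not in the table have no values here, so shares of all transferase RNA are unknown. Over the 19 transferase genes in the table, out of 31 listed, Gsto1 made up 68.0% to 95.0% of the summed FPKM in WT ICMs and 74.6% to 89.3% in KO ICMs. It was 7.20% to 8.36% in WT epiblasts and 72.0% to 88.3% in KO epiblasts, and these did not overlap. The sum itself was 350.8 to 530.0 FPKM in WT epiblasts and 1510.8 to 2357.2 FPKM in KO epiblasts. Of these 19 genes Gsta4 was the most abundant in all 3 WT epiblasts, and Gsto1 in all 3 KO epiblasts and all 14 ICMs. In single cells Gsto1 made up 0.935% to 21.5% of the sum in WT epiblast cells and 33.9% to 84.3% in KO epiblast cells. Gsta4 led in 6 of the 7 WT epiblast cells, with a mean of 362.6 FPKM, and Gstm1, a mu-class enzyme, had a mean of 102.2 FPKM. In 1 KO epiblast cell Gsta4, at 793.0 FPKM, exceeded Gsto1, at 578.2 FPKM, and Ptges, a prostaglandin E synthase, had the third highest mean of the KO cells, 72.2 FPKM. The microsomal enzyme Mgst3 led in the primitive endoderm, with 395.4 FPKM in the WT cell and a mean of 619.8 FPKM in the KO cells.

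The other 16 transferase genes did not move as a block. At E5.5, 3 of 16 were higher and 3 lower in KO, next to the 34.1% of all genes called, and their median log2 change was -0.27 against -0.07 over all genes tested. Beside Gsta2, Gsta4 and Gstt3 above, the mitochondrial enzyme Gstk1 rose from 6.45 to 27.4 FPKM (limma, Benjamini-Hochberg adjusted p = 0.00126). Ltc4s, the leukotriene C4 synthase, rose from 0.241 to 1.96 FPKM (limma, Benjamini-Hochberg adjusted p = 0.0362), a call that was lost without any 1 of the WT epiblasts (limma, Benjamini-Hochberg adjusted p = 0.0957 to 0.117). Gstm1 fell from 55.3 to 27.1 FPKM (limma, Benjamini-Hochberg adjusted p = 0.0106, and 0.0587 without the first WT epiblast). When all 4 embryo groups shared 1 fit, the count was 1 of 15 higher and 2 of 15 lower, and Gstk1 and Gstm1 were no longer called (limma, Benjamini-Hochberg adjusted p = 0.119 and 0.532).

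In the ICM only Gstcd, a gene with a transferase-like domain, was called among 14 tested, next to 28.3% of all genes, with a log2 change of -1.37 (SE 0.41, limma, Benjamini-Hochberg adjusted p = 0.0211). The median of the 14 was -0.03 against -0.65 over all genes tested, and 0 of the 14 were called without the 3 KO ICMs with the fewest detected genes (limma, 3 at an unadjusted p under 0.05), where Gstcd had an adjusted p of 0.132. Gstcd was not called under quantile normalization or median ratio scaling either (limma, Benjamini-Hochberg adjusted p = 0.351 and 0.0814), where 2 and 1 other transferases were called higher. From WT ICM to WT epiblast, 4 of 15 rose and 5 fell, next to 56.3% of all genes called, and Gstt3, Gsta4, Gstm1 and Gstk1 were those that rose. Those that fell were Mgst2, from 16.6 to 1.15 FPKM, Ptges, from 54.9 to 1.62 FPKM, Gsta2, Gstz1 and Gstm7. With detected genes as a covariate Gstm1 and Gsta2 were no longer called (limma, Benjamini-Hochberg adjusted p = 0.149 and 0.279), and without the second WT epiblast Gstz1 and Gstm7 were not (limma, Benjamini-Hochberg adjusted p = 0.111 and 0.106). In KO, 1 of 15 rose and 4 fell over the same time, next to 48.5%, with Gstk1 the one that rose and Mgst2, Ptges, Gstm7 and Gsta3 those that fell. The call of Gstk1 in KO was lost with detected genes as a covariate (limma, Benjamini-Hochberg adjusted p = 0.066), as was that of Gsta3 (limma, Benjamini-Hochberg adjusted p = 0.593). The calls of Gstm7 and Gsta3 in KO were lost without the first KO epiblast (limma, Benjamini-Hochberg adjusted p = 0.066 and 0.0763) and without the second (limma, Benjamini-Hochberg adjusted p = 0.0637 and 0.0742). The KO effect differed between the stages for 1 of 15, Gstt3, at -2.06 on the log2 scale (limma, Benjamini-Hochberg adjusted p = 0.0324), next to 14.0% of 5917 genes, 10.6% higher and 3.38% lower. That call was lost when any of 5 of the 6 E5.5 libraries was left out.

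**Figure D3:**
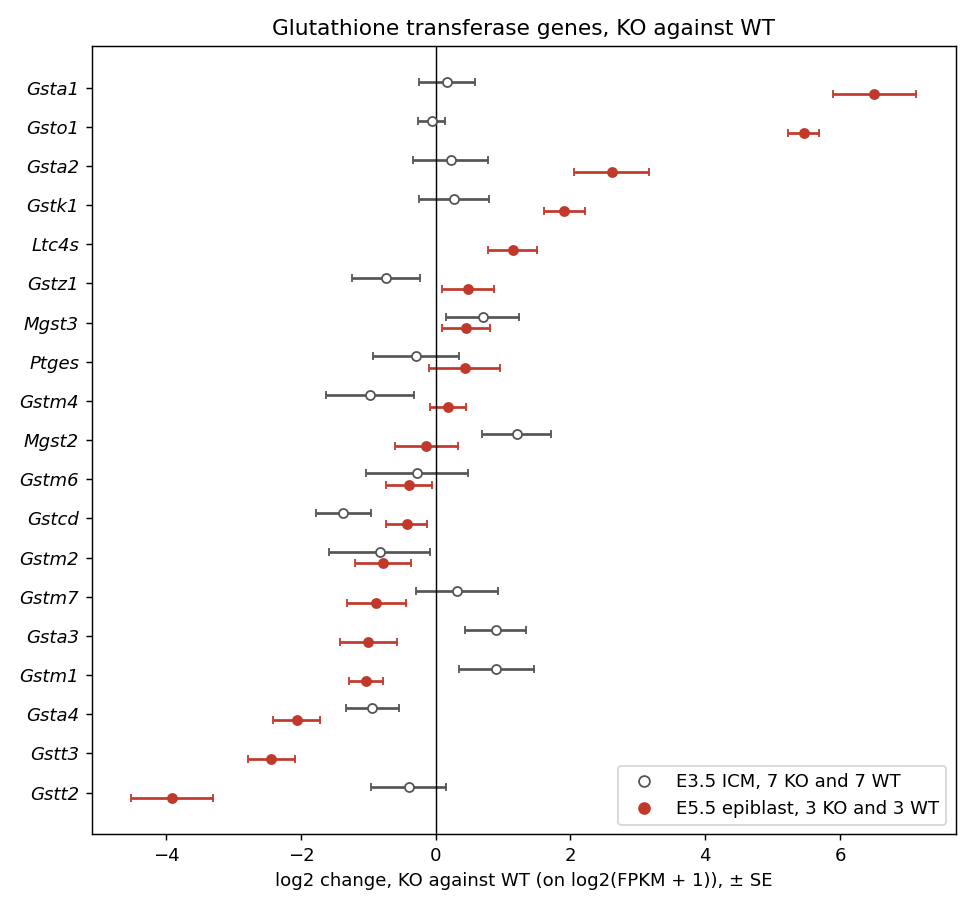
Log2 change of KO against WT with its SE for the 19 transferase genes, on log2(FPKM + 1), in E3.5 ICM (open circles) and E5.5 epiblast (red circles), ordered by the E5.5 value; genes under a mean of 1 FPKM in a fit have no point there. At E5.5 Gsta1 and Gsto1 stand at 6.51 and 5.46 and Gstt2 at -3.91, and the other 16 run from -2.44 to 2.61. The 3 genes were chosen with their E5.5 values known, so their place outside that range follows from the choice. In the ICM the 3 lie between -0.40 and 0.17.

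The pathway lists around these enzymes held called genes in both directions at E5.5, where 34.1% of all genes were called, 15.6% higher and 18.5% lower. Of the genes for glutathione synthesis and recycling, 3 of 16 were higher and 6 lower in KO, with a median of -0.15. Gss, which makes glutathione, stood at 10.3 ± 2.77 FPKM in WT and 30.0 ± 9.59 FPKM in KO epiblasts (SD, n = 3 each, limma, Benjamini-Hochberg adjusted p = 0.00369). Gclc, the catalytic subunit of the rate-limiting step before it, fell from 8.21 to 2.93 FPKM (limma, Benjamini-Hochberg adjusted p = 0.00597). In the list of peroxidase, thioredoxin and superoxide dismutase genes, no glutathione peroxidase was in the table. Of the others 3 of 17 were higher and 6 lower. Among them Sod2, the mitochondrial dismutase, rose from 27.7 to 74.1 FPKM (limma, Benjamini-Hochberg adjusted p = 0.00164), and Prdx1, a peroxiredoxin, fell from 2161.7 to 904.8 FPKM (limma, Benjamini-Hochberg adjusted p = 0.00532). Of the NRF2 axis, the factor that drives many detoxifying genes with its regulators and targets, 1 of 11 was higher and 5 lower. Hmox1, heme oxygenase, was the one that rose, from 34.3 to 75.6 FPKM (limma, Benjamini-Hochberg adjusted p = 0.00609), and Txnrd1, thioredoxin reductase, fell from 71.4 to 33 FPKM (limma, Benjamini-Hochberg adjusted p = 0.00301). Of 3 genes of ascorbate and arsenic handling, the ascorbate transporter Slc23a2 was lower, with a log2 change of -0.97 (limma, Benjamini-Hochberg adjusted p = 0.0229, and 0.109 without the second WT epiblast). With all 4 embryo groups in 1 fit these counts were 1 higher and 0 lower of 14 for synthesis, 1 and 2 of 18 for the peroxidases, 0 and 1 of 12 for the NRF2 axis and 0 of 2 for the last list, and Gss, Gclc, Hmox1, Txnrd1 and Slc23a2 were no longer called.

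In the ICM, where the 3 genes were not called, 7 of 12 synthesis genes were lower in KO and none higher, with a median of -0.99 against -0.65 over all genes, of which 24.9% were called lower and 3.44% higher. Gss stood at 61.0 ± 33.9 FPKM in WT and 13.8 ± 8.14 FPKM in KO ICMs (SD, n = 7 each, limma, Benjamini-Hochberg adjusted p = 0.00383). Of 18 peroxidase and thioredoxin genes 3 were higher and 1 lower, and thioredoxin, Txn1, rose from 753.9 to 1442.2 FPKM (limma, Benjamini-Hochberg adjusted p = 0.00326, and 0.0576 under quantile normalization). The NRF2 axis had 0 of 9 higher and 2 lower, a share near that background. The directions in the ICM depended on scaling. Under median ratio scaling 1 synthesis gene was higher and 3 lower, 7 peroxidase genes higher and 0 lower, and 2 genes of the NRF2 axis higher and 0 lower. Under quantile normalization these counts were 1 and 2, 1 and 1, and 2 and 0. Without the 3 KO ICMs with the fewest detected genes they were 0 and 3 of 13, 1 and 0 of 18, and 0 of 10 (limma, 2 at an unadjusted p under 0.05). Once the fit held detected genes as a covariate, limma called none of these genes, nor any of the 5443 (314 at an unadjusted p under 0.05).

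The genes most like each member were named by Spearman's rho of FPKM, as a description over libraries that share stage and genotype in groups. Over the 20 embryo libraries Gsto1 was most like Pqlc1 at 0.75, Fam101b at 0.73 and S100a6 at 0.71, among 6217 genes. S100a6, a calcium-binding protein, had means of 29.6 FPKM in WT ICM, 122.5 in KO ICM, 0.500 in WT epiblast and 87.5 in KO epiblast. Gsta1 was most like Sfmbt2, a Polycomb-related gene, at 0.81, Igf2r at 0.77 and Mbnl2 at 0.76. Sfmbt2 had means of 0.385 FPKM in WT and 33.5 FPKM in KO epiblasts. Gstt2 was most like Adar at 0.86, Cd81 at 0.82 and Zmat3 at 0.81, and Cd81, a tetraspanin, had means of 202.0 FPKM in WT and 78.9 FPKM in KO epiblasts. Gsto1 and Gsta1 had a rho of 0.53 with each other, and Gstt2 had -0.44 with Gsto1 and -0.56 with Gsta1.

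Over the 13 single cells Gsto1 was most like Taf1c at 0.91, Gja1 at 0.90 and Ccng1 at 0.87, among 4657 genes. Gja1, the gap junction protein connexin 43, had means of 48.5 FPKM in WT and 354.3 FPKM in KO epiblast cells, and 173.4 FPKM in WT and 33.8 FPKM in KO E5.5 epiblasts, where it did not follow Gsto1. Gsta1 was most like Lrrc34 at 0.88, Cldn7 at 0.87 and Etnk1 at 0.86, and had a rho of -0.01 with Gsto1. Gstt2 reached 1 FPKM in too few cells for this.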

How the data were processed

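RNA from 33 libraries was analysed. The deposited values are FPKM made by the authors; the program that gave them is not stated, and STAR 2.7.3, Trim Galore 0.6.4 and mm10 are named, with no roles, in the submitters' processing notes. The table had 7186 lines, and 4 lines with 2 repeated names were left out. FPKM gives no absolute depth, so no counting interval was computed.

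Groups followed the labels. For embryo libraries, log2(FPKM + 1) was fitted with limma (version 3.58.1, R version 4.3.3, with a variance trend and robust moderation). Genes entered a fit when their FPKM averaged 1 or more in its libraries. P-values were adjusted by Benjamini-Hochberg over all genes tested and called under 0.05. The pseudocount understates changes of low genes. Each comparison was fitted on its own groups; the difference between stages used all 4 embryo groups. Single cells were not tested. The fit was tested on simulated data.

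The 3 genes, the gene lists and the markers were chosen with earlier results of these data known. Named were the 3 genes, called transferases (in cells, the 3 with the highest mean), up to 4 genes of each other list with the smallest p, the 3 genes most like each member and their neighbours in the table. S100a6, Sfmbt2, Cd81 and Gja1 were picked for values after these were seen. Alternatives were pseudocounts of 0.1 and 5, filters, quantile and median ratio scaling, a replicate block, detected genes as a covariate, and leaving out libraries. The H3K4me3, ATAC and methylation data were not analysed here.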

Additional observations from a re-analysis of the deposited data

Results flagged for a closer look

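Gsto1 in the first WT ICM stood at 2245.4 FPKM, farther from the next highest of the 7 WT ICMs than Dixon's 95% limit allows. It was the only such value among 9 checks, of 3 genes in the 3 groups of 7 libraries, and chance gives about 1 in 20 per check. This library also had the highest trophectoderm marker sum of the ICMs, 983.9 FPKM, and without it the ICM log2 change of Gsto1 was 0.07.

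For 7 genes the KO effect differed between E5.5 and E3.5 (limma on log2(FPKM + 1), Benjamini-Hochberg adjusted over 5917 genes, of which 14.0% were called). They were 1 of 15 transferases, 3 of 14 synthesis genes and 3 of 18 peroxidase genes, next to 0 of 12 genes of the NRF2 axis. The difference, E5.5 minus E3.5, was 3.60 for Gss (limma, adjusted p = 0.00263), 3.10 for Ggt1 (limma, adjusted p = 0.0105, and 0.0898 with detected genes as a covariate) and 2.3 for Slc3a2 (limma, adjusted p = 0.000448). These genes make glutathione, break it down outside the cell and encode the heavy chain of the cystine transporter. Each was lower in KO at E3.5 and higher at E5.5. The other chain of that transporter, Slc7a11, stood at 0 to 0.236 FPKM in the E5.5 libraries. Under quantile normalization the E3.5 calls of Slc3a2 and Ggt1 were lost (limma, adjusted p = 0.0852 and 0.0926). With all 4 embryo groups in 1 fit the E5.5 calls of Gss and Ggt1 were lost (limma, adjusted p = 0.185 and 0.293). The difference was 1.17 for Sod2 (limma, adjusted p = 0.0125), a call lost with median ratio scaling (limma, adjusted p = 0.361) and without the first KO epiblast (limma, adjusted p = 0.0684). It was -2.14 for Prdx1 (limma, adjusted p = 0.00322, and 0.0956 under quantile normalization), -1.74 for Prdx2 (limma, adjusted p = 0.00552) and -2.06 for Gstt3 (limma, adjusted p = 0.0324). The E5.5 KO libraries carry trophoblast markers, at 1936.7 to 3392.6 FPKM summed, and the part of this in these differences was not tested.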

How the results depend on the processing

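The E5.5 KO against WT changes kept their direction for all 3 genes under every alternative run, from 5.25 to 5.63 for Gsto1, 4.32 to 9.44 for Gsta1 and -4.76 to -2.72 for Gstt2 (the last at a pseudocount of 5). The cause of the changes that follow was not tested. In the ICM, Gsto1 was 0.51 with median ratio scaling, -0.60 under quantile normalization and -0.15 to 0.07 when single libraries were left out. Gsta1 was 0.98 under quantile normalization and ran from -0.01 to 0.44 without single libraries, and -0.01 came without the fourth KO ICM. Gstt2 was -1.12 at a pseudocount of 0.1, 0.45 under quantile normalization, 1.36 with detected genes as a covariate and 0.59 without KO ICMs 1, 4 and 6, those with the fewest detected genes. None of these was called. The 1540 genes called in the ICM became 708 under quantile normalization (357 of them higher), 866 with median ratio scaling (414 of them higher), 405 without those 3 KO ICMs, 0 with the covariate (limma, 314 at an unadjusted p under 0.05), and 946 to 1875 without single libraries (946 and 987 without WT ICM 1 and 4). The 1 transferase called became 0 with a filter of 5 FPKM, with the covariate and without those 3 KO ICMs, 2 under quantile normalization and with all 4 groups in 1 fit, and 1 to 2 without single libraries.

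The E5.5 count of 2032 became 561 with all 4 groups in 1 fit and 1205 to 2185 without single libraries (1205 and 1293 without WT epiblast 1 and 2), and the 6 transferases became 3 in that fit and with a filter of 5 FPKM. From WT ICM to WT epiblast, Gsto1 was -5.67 and 2143 of 3388 genes were called with the covariate, Gsta1 was -5.04 and -0.92 at pseudocounts of 0.1 and 5, and Gstt2 was 2.41 at 5. In KO, Gsta1 ran from 3.09 with median ratio scaling to 4.61 with a replicate block, and Gsto1 was 0.93 under quantile normalization and -0.63 with median ratio scaling. Gstt2 was -2.95 with the covariate and -1.10 to 0.27 without single libraries. The KO count of 2717 became 1749 with median ratio scaling and 1103 with the covariate, and the 5 transferases 3 to 6 without single libraries. For the difference between stages, Gsto1 was 6.80 under quantile normalization and 4.91 with median ratio scaling. Gsta1 was 9.29 and 4.18 at pseudocounts of 0.1 and 5, 5.38 and 5.37 under those scalings and 5.5 to 6.88 without single libraries, and Gstt2 was -5.18 with the covariate. Its 827 genes became 520 at a pseudocount of 0.1, 550 with median ratio scaling, 446 with the covariate and 458 to 1034 without single libraries (458, 489 and 496 without KO epiblast 1 and WT epiblasts 1 and 2). The 1 transferase became 2 at a pseudocount of 5, 0 with a filter of 5 FPKM, 3 under quantile normalization, 0 with median ratio scaling and 0 to 2 without single libraries.

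Deviations of same-numbered WT and KO libraries had correlations of -0.133 to 0.145 in the ICM and -0.024 to 0.107 at E5.5. No pairing by number was seen, but unlike numbers were not compared, so a pairing is not excluded. With a replicate block 1221 genes were called in the ICM, 1950 at E5.5, 2968 and 2439 over time in WT and KO and 713 for the difference, where 2 transferases were called. The block left the Gsto1 change at -0.06 in the ICM and 5.46 at E5.5. The filter of 5 FPKM removed Gstt2 from the ICM and KO time fits and Gsta1 from the WT time fit. Without single E4.5 epiblast cells the Gsto1 mean ran from 1333.6 to 2154.3 FPKM in KO and from 40.9 to 59.3 FPKM in WT. Gstt2 in WT epiblast cells had a median of 0 against a mean of 6.51 FPKM. All cell means stayed within 1 SD of the cells. Leaving out 1 cell cannot move a mean that far, so this is no check. Low FPKM values, as for Gsta1 in WT and Gstt2 in KO epiblasts, carry a counting error that cannot be given without depth.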
